A study of Homo sapiens with 6 samples.

Results

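The genes described here encode the subunits of Mediator and Integrator, a pair of large complexes that work with RNA polymerase II. They were taken from the deposited count table as every protein-coding gene whose symbol is MED or INTS followed by a number, with or without a letter, together with CDK8, CDK19 and CCNC. This gave 48 of the 39323 genes in the table, 33 of Mediator and 15 of Integrator, and all 48 passed the filter on low counts. Polyadenylated RNA was sequenced from the established breast cancer line MDA-MB-231, which is human and triple-negative. In 3 libraries the cells carried a small interfering RNA (siRNA) duplex against SF3B6 (siSF3B6), and in 3 libraries a non-targeting duplex (siNC). Both groups were given the same lipid transfection reagent. SF3B6 encodes a small protein of SF3b, with which the U2 snRNP of the spliceosome recognises the branch point of introns. The question of the series is what SF3B6 does to transcripts in these cells. Each group had a single duplex, so the loss of SF3B6 and any other effect of that duplex cannot be told apart. The design calls the replicates biological but names no separate cultures, so the p-values reflect the variation among these libraries, which may be technical. In such bulk RNA, changes in the mix of cells and changes per cell cannot be told apart.

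Mediator carries signals from DNA-bound transcription factors to RNA polymerase II at promoters. Its head and middle modules contact the polymerase, its tail contacts activators, MED14 is the scaffold that joins them, and a separable kinase module holds CDK8 or CDK19 with cyclin C, MED12 and MED13. Integrator binds polymerase that has paused soon after initiation, cuts the nascent RNA through the endonuclease INTS11, and brings the phosphatase PP2A to the polymerase. It also forms the 3' ends of the spliceosomal snRNAs.

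The sense strands of both duplexes, as given in the labels' protocols without their overhangs, show what each group received. Capitals mark the bases that pair with bases 2 to 8 of the guide strand, the seed through which a duplex can also bind other mRNAs.
siSF3B6: ggaggaacaguUGAAGCUu
siNC: uucuccgaacgUGUCACGu
The whole siSF3B6 sense strand was found in the transcripts of 1 gene, SF3B6, and that of siNC in 0. The siSF3B6 seed match occurred in an annotated 3' UTR of 15 of the 48 subunit genes (31.2%), and of 21.9% of the 13368 protein-coding genes tested that have a 3' UTR. Of the subunit genes with that match, 7 were among the 18 that rose, 2 among the 10 that fell (MED24 and INTS10) and 6 among the 20 without a call. The siNC seed match occurred in 4.17% of subunit genes (MED18 and MED26) and in 4.32% of the protein-coding genes. A seed match is a description of sequence, and its part in any level was not tested.

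Levels are read counts scaled to library size and TMM factors (CPM), and between genes the deposited FPKM values, which also divide by gene length. SF3B6 itself stood at 86.4, 80.5 and 102 CPM in siNC replicates 1 to 3 and at 22.5, 25.0 and 21.3 CPM in siSF3B6. It fell by 1.96 on the log2 scale (SE 0.104, edgeR quasi-likelihood adjusted p = 1.43e-07), to 25.6% of siNC. Gene totals ran from 28504091 to 38546037 reads. The libraries did not fall into 2 even groups: the share of mitochondrially encoded genes was 3.38%, 3.93% and 9.07% in siNC replicates 1 to 3 and 10.6% to 11.8% in siSF3B6. Between 24516 and 25566 genes had a read in siNC replicate 3 and the siSF3B6 libraries, against 30930 and 32041 in siNC replicates 1 and 2. Results are therefore also given without siNC replicate 3 and with it as the lone control. Across all genes tested, fold changes also ran with the GC content of the transcript, so results are given with an offset that removes each library's trend with GC content and length. The cells carried the mesenchymal marker VIM at 2880 to 3320 CPM. Of the luminal and epithelial markers, ESR1 and PGR stood below 1 CPM, while KRT8 (1000 to 1190 CPM) and KRT18 (728 to 819 CPM) were high. ERBB2 stood at 49.3 to 65.0 CPM (4.13 to 5.38 FPKM), and CDH1 was low at 4.02 to 7.49 CPM. The leukocyte marker CD3E stood below 1 CPM and CD14 at 11.3 to 14.6 CPM, and the endothelial marker CDH5 below 1 CPM and PECAM1 at 6.67 to 9.68 CPM. Of the tested markers, 1 of 4 mesenchymal genes (ZEB1, by 0.30) and 2 of 5 luminal or epithelial genes rose. So did 1 of 2 leukocyte genes and 1 of 2 fibroblast genes, and the 1 endothelial gene tested, PECAM1, fell. The leukocyte gene that rose, PTPRC, was low at 0.481 to 1.47 CPM, and its call was lost with the offset (adjusted p = 0.068). The fibroblast gene that rose, LUM, was also low, at 2.05 to 3.98 CPM. EPCAM rose by 1.09 on the log2 scale, to between 22.0 and 24.0 CPM. The part of these markers in the results was not tested.

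Per unit of length, Mediator and Integrator transcripts were spread over a wide range in the control cells. The highest deposited FPKM belonged to MED10, a middle module subunit, at 25.1 ± 0.989 (SD, n = 3). It was followed by the head subunits MED18 at 17.9 ± 3.91 and MED8 at 16.1 ± 0.263, whose values overlapped. The lowest was MED12L, a paralog of MED12, at 0.10 ± 0.01 FPKM. MED17, a core head subunit, came next at 0.313 ± 0.0208 FPKM, where the gene length implied by counts and FPKM was 2.44 times the longest annotated transcript. Among Integrator genes, INTS13 (8.84 ± 0.153 FPKM) and INTS11 (8.59 ± 0.232 FPKM) were highest and did not differ beyond their spread. Their implied gene lengths were 0.778 (INTS13) and 2.02 (INTS11) times the longest annotated transcript. How these genes compare therefore depends on the length used, and their siNC means were 31.6 and 82.5 CPM. INTS6L was lowest at 0.407 ± 0.0379 FPKM. The median FPKM was 7.16 over Mediator and 5.03 over Integrator in siNC, and 6.21 and 4.11 in siSF3B6. These medians can fall on different genes in each group and do not give the change per gene. The median log2 fold change per gene, from counts, was 0.12 in Mediator and -0.10 in Integrator. The kinase module genes had the lowest median of the Mediator modules, 1.57 FPKM in siNC and 1.79 in siSF3B6.

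**Figure D1:**
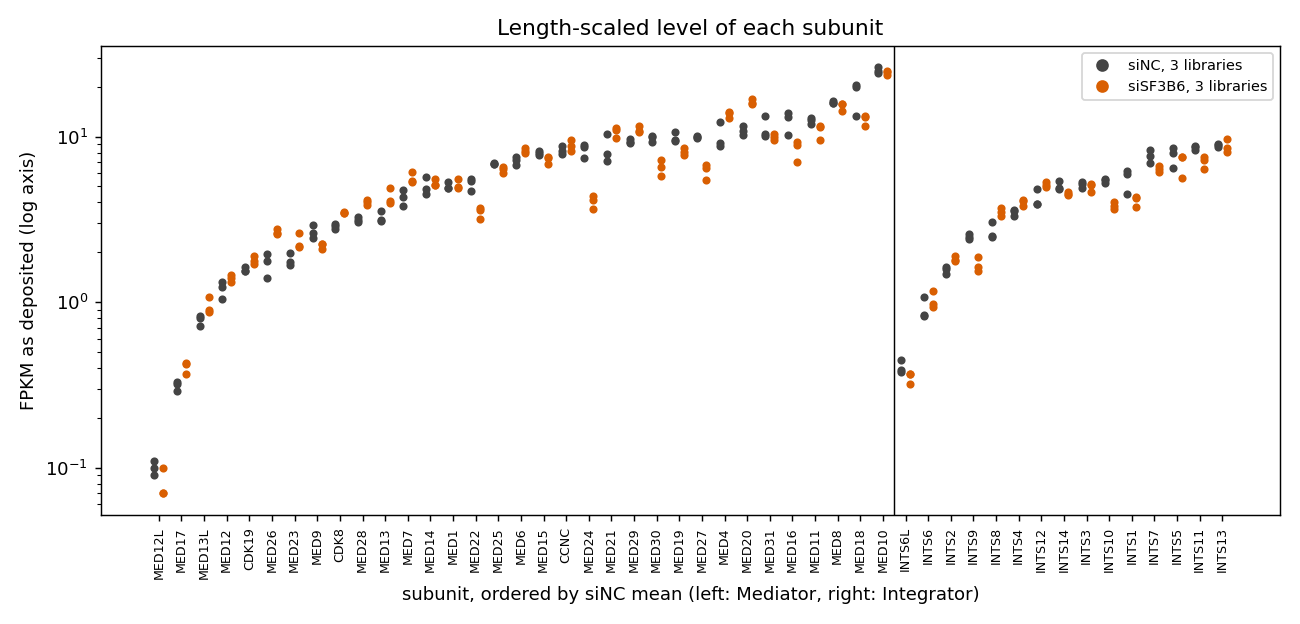
Deposited FPKM (log axis) of each subunit gene in each of the 6 libraries, ordered by the siNC mean within Mediator (left) and Integrator (right). Grey points are siNC libraries and orange points siSF3B6 libraries; MED10 is highest at 25.1 FPKM in siNC, MED12L is lowest, and the orange points of MED24 lie below all grey points of that gene.

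Against siNC, subunits of the same complex moved in opposite directions. A gene was called when its adjusted p in the edgeR quasi-likelihood test was under 0.05, over 16869 genes tested. Of the 48 subunit genes, 28 were called (58.3%), where 40.8% of all genes tested and 45.7% of tested protein-coding genes were. Of these, 18 rose (37.5%, against 20.8% of all genes) and 10 fell (20.8%, against 20.0% of all genes). These shares by direction are over all genes and not over protein-coding genes alone, which were called more often. In Mediator 14 rose, 6 fell and 13 were not called, with a median log2 fold change of 0.12 and a range from -0.98 to 0.69. In Integrator 4 rose, 4 fell and 7 were not called, with a median of -0.10 and a range from -0.51 to 0.44. The median of all genes tested was 0.00.

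Those counts rested in part on the control libraries. All 3 siSF3B6 values lay above all 3 siNC values for 18 subunit genes (26.3% of all genes did so) and below them for 13 (25.9% of all genes). Without siNC replicate 3, 22 Mediator and 9 Integrator genes were called, where 43.8% of all genes were. Against siNC replicate 3 as the lone control, 5 Mediator genes and 1 Integrator gene were called, where 13.8% of all genes were, and all 28 called genes had the same direction. Those 6 were MED20, MED24, MED26, MED27, MED30 and INTS10. With the GC and length offset, 15 subunit genes were called higher (23.7% of all genes) and 10 lower (22.7% of all genes). With the offset and the lone control together, 9 Mediator and 3 Integrator genes were called, where 29.1% of all genes were. Scaling by library size only moved the median of all genes to -0.10. Calls then split into 9 higher and 8 lower in Mediator and 1 higher and 5 lower in Integrator. Over all 16869 genes tested they split into 2459 higher and 4558 lower. The counts also moved with single libraries, as did those over all genes. Leaving out siNC replicate 2 left 13 Mediator and 3 Integrator calls, where 29.3% of all genes were called. Leaving out siNC replicate 1 left 3 Integrator calls (30.0% of all genes). Leaving out siSF3B6 replicate 1 left 5 Integrator calls (33.0% of all genes), and leaving out siSF3B6 replicate 2 also left 5 (34.9% of all genes).

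**Figure D2:**
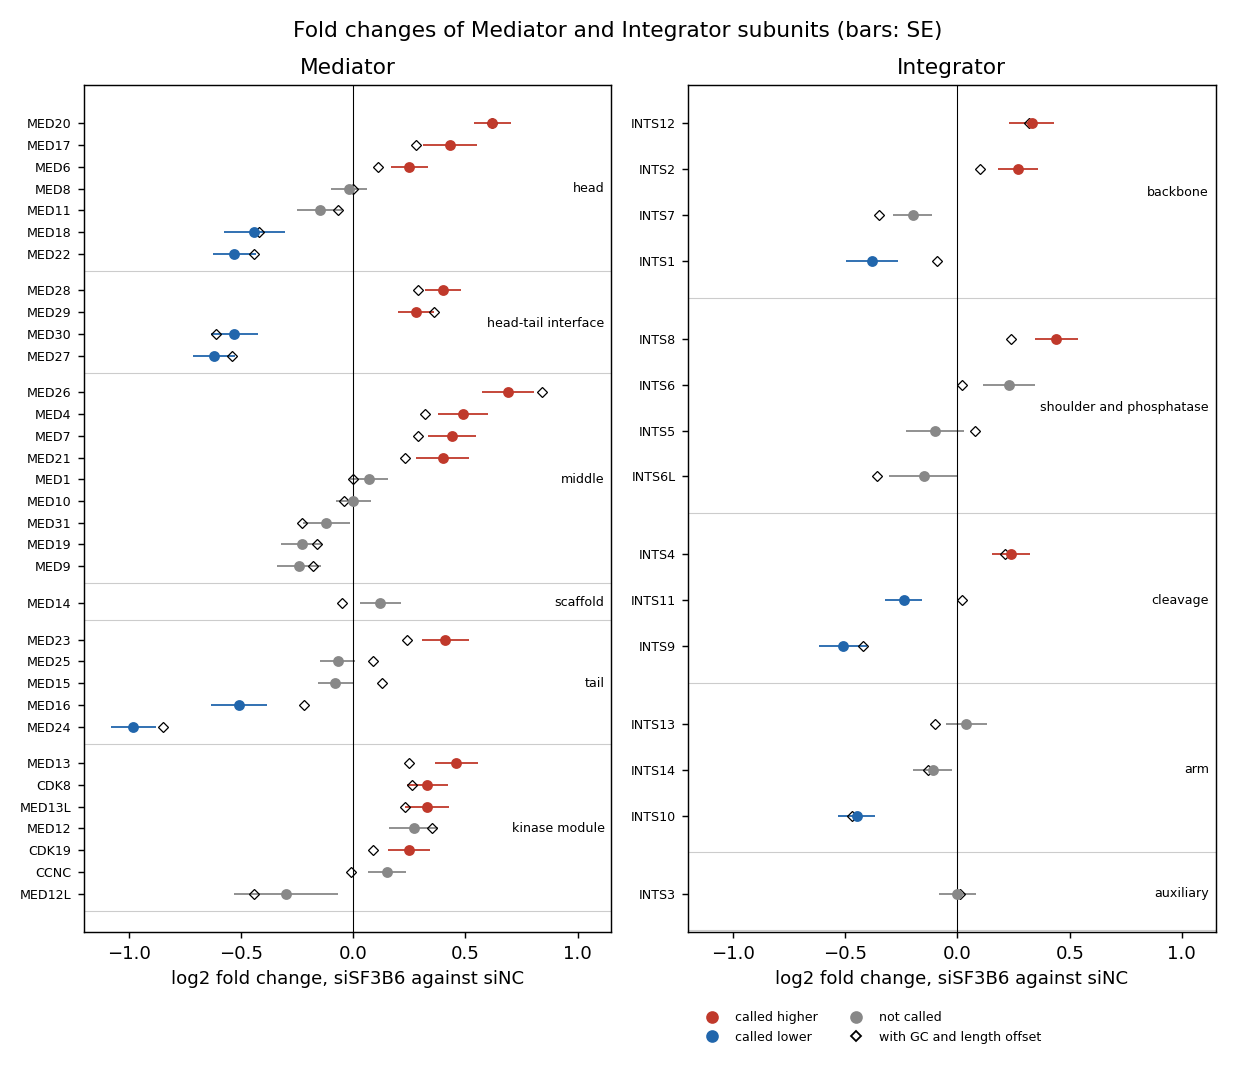
Log2 fold change of each subunit gene, siSF3B6 against siNC, with its SE as a bar, ordered by module; red was called higher, blue called lower and grey not called, and open diamonds give the value with the GC and length offset. MED24 at -0.98 and MED26 at 0.69 are the ends of the range, and 4 of the 7 kinase module genes are red, where 20.8% of all genes tested were called higher.

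The head module, which meets the polymerase and the general factors, held genes that rose and genes that fell. Here 3 of 7 rose, 2 fell and 2 were not called, where 20.8% of all genes tested rose and 20.0% fell. MED20, which pairs with MED18 on the movable jaw of the head, stood at 39.2, 41.6 and 43.9 CPM in siNC and at 62.3, 62.9 and 67.1 CPM in siSF3B6. The groups were well apart. It rose by 0.62 on the log2 scale (SE 0.0815, adjusted p = 6.97e-05), and by 0.53 against siNC replicate 3 alone. Its partner MED18 stood at 48.1, 47.2 and 31.1 CPM in siNC and at 31.9, 32.6 and 28.2 CPM in siSF3B6. Here siNC replicate 3 lay among the siSF3B6 libraries, and the groups overlapped. The log2 fold change of MED18 was -0.44 (SE 0.138, adjusted p = 0.0200), -0.62 without siNC replicate 3 and -0.02 against it alone (adjusted p = 0.940). The call was lost without siNC replicate 1 (adjusted p = 0.0942), siNC replicate 2 (0.0895) or siSF3B6 replicate 3 (0.0830).

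MED22, a small subunit of the head's core, stood at 47.0, 46.0 and 39.3 CPM in siNC and at 31.8, 32.2 and 27.9 CPM in siSF3B6, with no overlap. It fell by 0.53 on the log2 scale (SE 0.0959, adjusted p = 0.000760). Against siNC replicate 3 alone its value was -0.37 (adjusted p = 0.0881). MED17, the head's central subunit, was low throughout at 5.58, 6.53 and 6.13 CPM in siNC and at 7.42, 8.47 and 8.67 CPM in siSF3B6. It rose by 0.43 (SE 0.121, adjusted p = 0.0119), or 0.28 with the offset (adjusted p = 0.0506), and its call was lost without siNC replicate 1 (adjusted p = 0.0625). Of the exonic bases of MED17, 13.0% are shared with AP001273.2, annotated as protein-coding on the same strand. Strand could therefore not tell the reads of these genes apart. MED6, at the contact of head and middle, rose by 0.25 (adjusted p = 0.0244). That value was 0.11 with the offset, and its call was lost without siNC replicate 2 (adjusted p = 0.127) or siSF3B6 replicate 1 (0.0783). MED8 and MED11 were not called, at -0.02 and -0.15.

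The subunits between head and tail, MED27, MED28, MED29 and MED30, were all called, in opposite directions. MED27 was the most even gene among the controls, at 44.7, 44.6 and 44.7 CPM, and stood at 30.1, 31.4 and 25.5 CPM in siSF3B6. It fell by 0.62 on the log2 scale (SE 0.0919, adjusted p = 0.000178), by 0.54 with the offset. MED30, found in animals but not in yeast, stood at 15.6, 17.1 and 16.5 CPM in siNC and at 11.4, 12.6 and 10.0 CPM in siSF3B6. It fell by 0.53 (SE 0.106, adjusted p = 0.00142). In both genes siNC replicate 3 sat with the other controls, and every siSF3B6 library lay below every control. MED28 stood at 40.1, 39.5 and 41.3 CPM in siNC and at 54.7, 51.2 and 53.7 CPM in siSF3B6 and rose by 0.40 (SE 0.0782, adjusted p = 0.00121). MED29 rose by 0.28 (SE 0.0790, adjusted p = 0.0123), from 41.6 to 43.0 CPM in siNC to 49.5 to 53.8 CPM in siSF3B6. The MED29 call was lost without siNC replicate 1 (adjusted p = 0.0585), siNC replicate 2 (0.0592) or siSF3B6 replicate 2 (0.0692). Thus 2 genes of this interface rose and 2 fell, and none of their groups overlapped. Over all genes tested, 40.8% were called. The groups also did not overlap for 26.3% of all genes, higher in siSF3B6, and for 25.9%, lower in siSF3B6.

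In the middle module, which passes contacts from the tail to the polymerase, 4 of 9 genes rose and 5 were not called. Among all genes tested, 20.8% rose. MED26, which recruits elongation factors and joins Mediator when the kinase module leaves, stood at 11.0, 8.78 and 12.0 CPM in siNC and at 18.0, 16.6 and 16.9 CPM in siSF3B6. Every siSF3B6 library was above every control. MED26 rose by 0.69 (SE 0.116, adjusted p = 0.000412), by 0.84 with the offset and by 0.51 against siNC replicate 3 alone. Of the exonic bases of MED26, 27.2% are shared with AC008764.1 and 13.2% with AC008764.4. Both are annotated as protein-coding on the same strand, so strand could not tell their reads from those of MED26. MED4, which pairs with MED9 in the module, stood at 26.7, 27.9 and 36.6 CPM in siNC and at 40.9, 43.1 and 44.3 CPM in siSF3B6. It rose by 0.49 (SE 0.112, adjusted p = 0.00332), and siNC replicate 3 was nearer to siSF3B6 than to the other controls. Its value was 0.32 with the offset and 0.21 against siNC replicate 3 alone (adjusted p = 0.316).

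MED7 and MED21 form a paired helix at the centre of the middle module. MED7 stood at 14.0, 12.5 and 15.3 CPM in siNC and at 18.1, 17.8 and 20.7 CPM in siSF3B6 and rose by 0.44 (SE 0.105, adjusted p = 0.00456), 0.29 with the offset. MED21 stood at 33.1, 30.5 and 43.2 CPM in siNC and at 49.7, 43.2 and 48.2 CPM in siSF3B6, so that siNC replicate 3 met the lowest siSF3B6 library. It rose by 0.40 (SE 0.118, adjusted p = 0.0150), 0.23 with the offset, 0.57 without siNC replicate 3 and 0.11 against it alone. The MED21 call was lost without siNC replicate 1 (adjusted p = 0.0670), siNC replicate 2 (0.0863), siSF3B6 replicate 1 (0.0592) or siSF3B6 replicate 3 (0.0520). MED1, the subunit that nuclear receptors bind, was not called at 0.07, nor were MED10 (0.00), MED31 (-0.12), MED19 (-0.23) and MED9 (-0.24). With the offset MED31 was called lower, at -0.23 (adjusted p = 0.0295). Of the exonic bases of MED31, 58.3% are shared with TXNDC17 on the opposite strand, which was itself called at 0.28. Whether the counting used strand is not given in the sources used here. MED14, the scaffold, stood at 54.4, 51.5 and 63.6 CPM in siNC and at 59.6, 59.9 and 65.2 CPM in siSF3B6. Its groups overlapped, and its log2 fold change was 0.12 (SE 0.0920, adjusted p = 0.305).

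The tail, where activators dock, held the largest change of all subunit genes. MED24 stood at 71.9, 71.4 and 59.2 CPM in siNC and at 35.1, 36.8 and 30.9 CPM in siSF3B6. The controls and the siSF3B6 libraries were far apart, and MED24 was at 50.8% of siNC. It fell by 0.98 on the log2 scale (SE 0.0997, adjusted p = 1.20e-05), by 0.85 with the offset and by 0.80 against siNC replicate 3 alone (adjusted p = 0.00290). MED16, its neighbour in the tail, stood at 68.1, 65.3 and 49.9 CPM in siNC and at 47.5, 45.2 and 36.1 CPM in siSF3B6. It fell by 0.51 (SE 0.125, adjusted p = 0.00523). That value was -0.22 with the offset and -0.23 against siNC replicate 3 alone (adjusted p = 0.360), and siNC replicate 3 lay nearer to siSF3B6. MED23, a tail subunit bound by the MAPK-activated factor ELK1, stood at 15.2, 14.7 and 17.1 CPM in siNC and at 19.5, 19.4 and 23.5 CPM in siSF3B6. It rose by 0.41 (SE 0.105, adjusted p = 0.00717), 0.24 with the offset. MED15 and MED25, further activator targets in the tail, were not called at -0.08 and -0.07.

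In the kinase module 4 of 7 genes rose and 3 were not called, with a median log2 fold change of 0.27. Over all genes tested, 20.8% rose. CDK8, the kinase, stood at 12.0, 11.6 and 12.1 CPM in siNC and at 14.7, 14.8 and 15.1 CPM in siSF3B6. The values were tight within each group. CDK8 rose by 0.33 (SE 0.0919, adjusted p = 0.0121), and its call was lost without siNC replicate 2 (adjusted p = 0.0585). Its paralog CDK19 stood at 14.6, 13.9 and 13.6 CPM in siNC and at 15.8, 16.3 and 17.8 CPM in siSF3B6. Its log2 fold change of 0.25 (SE 0.0937) lay at the threshold, at an adjusted p of 0.0499. The CDK19 call was lost in 21 of 23 alternatives, leaving out any library among them (adjusted p up to 0.140, without siNC replicate 2), and its value was 0.09 with the offset.

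MED13, which tethers the module to the core, stood at 46.1, 46.6 and 52.3 CPM in siNC and at 63.0, 60.8 and 75.4 CPM in siSF3B6. It rose by 0.46 (SE 0.0968, adjusted p = 0.00211), 0.25 with the offset. MED13L stood at 31.4, 27.9 and 30.5 CPM in siNC and at 34.7, 35.5 and 43.0 CPM in siSF3B6. It rose by 0.33 (SE 0.0989, adjusted p = 0.0154), and its call was lost without siNC replicate 2 (adjusted p = 0.0808). In both genes siSF3B6 replicate 3 was the highest library. MED12, which activates the kinase, stood at 9.14, 10.8 and 11.3 CPM in siNC and at 13.1, 12.5 and 12.0 CPM in siSF3B6. It was not called at 0.27 (adjusted p = 0.0639) and was with the offset, at 0.35 (adjusted p = 0.0127). MED12L was near the limit of detection at 1.00 to 1.66 CPM over all libraries, with 32 to 50 reads, and was not called at -0.30. CCNC, cyclin C, stood at 54.0, 51.7 and 56.5 CPM in siNC and at 55.5, 59.3 and 65.3 CPM in siSF3B6 and was not called at 0.15 (adjusted p = 0.176).

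**Figure D3:**
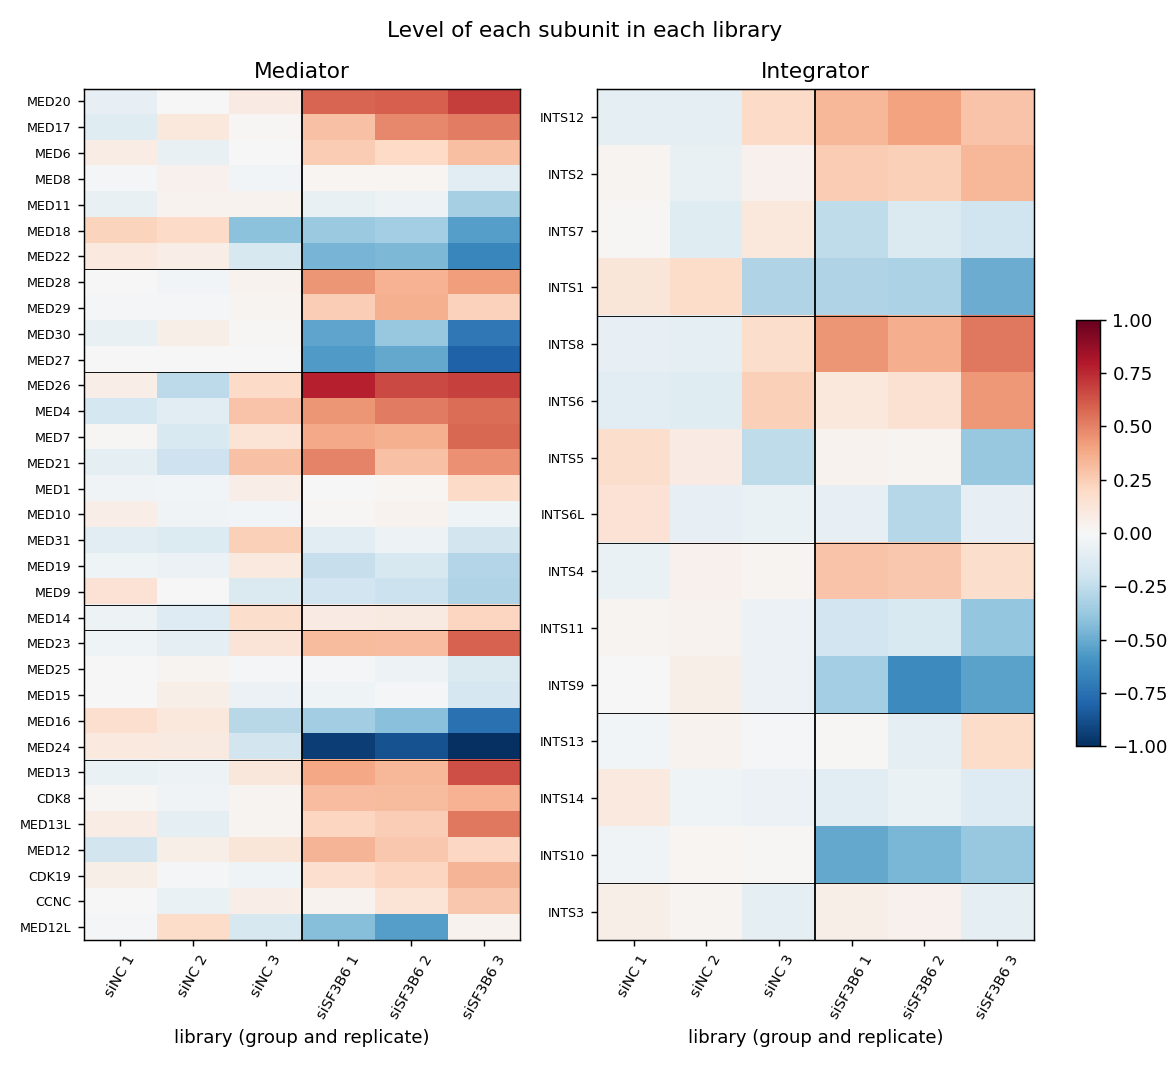
Log2 CPM of each subunit gene in each library minus the mean of the 3 siNC libraries, from -1 (blue) to 1 (red), with modules divided by thin lines and groups by the vertical line. MED24, MED27 and MED20 differ between all libraries of the groups, while siNC replicate 3 is coloured like siSF3B6 for MED18, MED4 and INTS1.

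In Integrator, all 3 genes of the cleavage module were called, where 40.8% of all genes tested were. With the offset, 1 of them was called higher and 1 lower. INTS9, the inactive partner of the endonuclease, stood at 14.2, 14.8 and 13.6 CPM in siNC and at 11.2, 9.12 and 9.78 CPM in siSF3B6. It fell by 0.51 (SE 0.107, adjusted p = 0.00204) with no overlap, and was at -0.45 against siNC replicate 3 alone (adjusted p = 0.0743). INTS11, the endonuclease, stood at 84.0, 84.4 and 79.0 CPM in siNC and at 72.0, 74.2 and 63.2 CPM in siSF3B6. It fell by 0.24 (SE 0.0839, adjusted p = 0.0346), but with the offset its value was 0.02 (adjusted p = 0.777). The INTS11 call was also lost without siNC replicate 1 (adjusted p = 0.117), siNC replicate 2 (0.119), siSF3B6 replicate 1 (0.0652) or siSF3B6 replicate 3 (0.0528). INTS4, which holds the pair together, stood at 23.6, 25.5 and 25.2 CPM in siNC and at 30.2, 29.8 and 27.9 CPM in siSF3B6 and rose by 0.24 (SE 0.0844, adjusted p = 0.0347). Its call was lost without siNC replicate 1 (adjusted p = 0.161), siNC replicate 2 (0.0795), siSF3B6 replicate 1 (0.132) or siSF3B6 replicate 2 (0.103).

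INTS10, in the arm module with INTS13 and INTS14, stood at 40.8, 42.5 and 42.2 CPM in siNC and at 29.4, 30.5 and 32.1 CPM in siSF3B6. The 3 controls lay close together and above every siSF3B6 library. It fell by 0.45 (SE 0.0811, adjusted p = 0.000728), by 0.47 both with the offset and against siNC replicate 3 alone (adjusted p = 0.0289). Its arm partners were not called, INTS13 at 0.04 and INTS14 at -0.11. In the backbone, INTS1, the largest subunit, stood at 63.3, 66.0 and 47.3 CPM in siNC and at 47.3, 46.9 and 41.4 CPM in siSF3B6. The control replicate 3 again matched siSF3B6. The log2 fold change of INTS1 was -0.38 (SE 0.115, adjusted p = 0.0175), -0.09 with the offset and -0.08 against siNC replicate 3 alone. Its call was lost without siNC replicate 1 (adjusted p = 0.0747), siNC replicate 2 (0.0949) or siSF3B6 replicate 3 (0.0653).

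INTS12, which binds INTS1, stood at 17.9, 17.9 and 21.8 CPM in siNC and at 24.0, 25.2 and 23.3 CPM in siSF3B6. It rose by 0.33 (adjusted p = 0.0161), 0.14 against siNC replicate 3 alone. The INTS12 call was lost without siNC replicate 1 (adjusted p = 0.0863), siNC replicate 2 (0.0854) or siSF3B6 replicate 2 (0.0594). INTS2, at 15.0 to 16.3 CPM in siNC and at 18.6 to 19.9 CPM in siSF3B6, rose by 0.27 (adjusted p = 0.0255), 0.10 with the offset. Its call was lost without siNC replicate 1 (adjusted p = 0.0714), siNC replicate 2 (0.120), siSF3B6 replicate 1 (0.0656) or siSF3B6 replicate 2 (0.0516). INTS7, the remaining backbone gene, was not called at -0.20 (adjusted p = 0.0716) and was with the offset, at -0.35 (adjusted p = 0.000886).

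In the shoulder and phosphatase module, INTS8, which holds PP2A on the complex, stood at 23.2, 22.9 and 27.7 CPM in siNC and at 33.2, 31.5 and 35.3 CPM in siSF3B6. Its groups did not overlap. It rose by 0.44 (SE 0.0966, adjusted p = 0.00286), 0.24 with the offset and 0.25 against siNC replicate 3 alone (adjusted p = 0.246). On the opposite strand, CCNE2 shares 20.7% of the exonic bases of INTS8. It lay just outside a call at -0.26 (adjusted p = 0.0501) and was called with the offset, at -0.46 (adjusted p = 0.000158). INTS6, which contacts PP2A, stood at 24.8, 24.7 and 31.6 CPM in siNC and at 28.9, 29.8 and 36.2 CPM in siSF3B6. INTS6 was not called at 0.23 (adjusted p = 0.136). Its paralog INTS6L was low, at 2.79 to 3.75 CPM, and was not called at -0.15. INTS5 (-0.10) and INTS3 (0.00), which also belongs to the SOSS complex of DNA repair, were not called.

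Several subunits exist as paralogs that replace each other in the complex, so their balance was compared as the ratio of FPKM within each library. CDK8 over CDK19 was 1.77, 1.80 and 1.92 in siNC and 2.01, 1.97 and 1.84 in siSF3B6. The ratio of MED12 to MED12L was 10.5, 11.3 and 14.7 in siNC and 20.9, 20.0 and 13.3 in siSF3B6, and rests on the few reads of MED12L. MED13 over MED13L was 3.79, 4.33 and 4.46 in siNC and 4.71, 4.46 and 4.54 in siSF3B6. For INTS6 over INTS6L the ratio was 1.84, 2.16 and 2.74 in siNC and 2.54, 3.03 and 3.16 in siSF3B6. The log2 ratios differed by 0.08, 0.56, 0.13 and 0.39 in that order. None of the 4 differences passed a two-sided exact permutation test (p = 0.2 for each, adjusted p = 0.2 over the 4 pairs), whose smallest possible p here is 0.1. In each pair the dominant form was the same in all 6 libraries.

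Fold changes of the subunit genes ran with the GC content of their longest transcript. The median GC content was 42.3% for the 18 genes that rose, 46.6% for those not called and 53.6% for the 10 that fell. Across the 48 genes, which share the same 6 libraries, Pearson's r between log2 fold change and GC content was -0.47 and Spearman's rho -0.48. Over 16675 genes tested the values were -0.31 and -0.34. With the offset the subunit genes gave -0.11 and -0.16. The same gradient separated the controls: the log2 difference of siNC replicate 3 from replicates 1 and 2 gave -0.59 and -0.57 over the subunit genes. Over the 16675 genes that difference gave -0.34 and -0.43. MED26, at 58.5% GC, and MED24, at 56.7% GC, lie at opposite ends of the fold changes with similar GC content. Of the 28 called genes, 22 were also called with the offset and 27 had the same direction, INTS11 being the exception. The number of introns had a Spearman's rho of -0.01 with the fold change over the 48 genes.

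**Figure D4:**
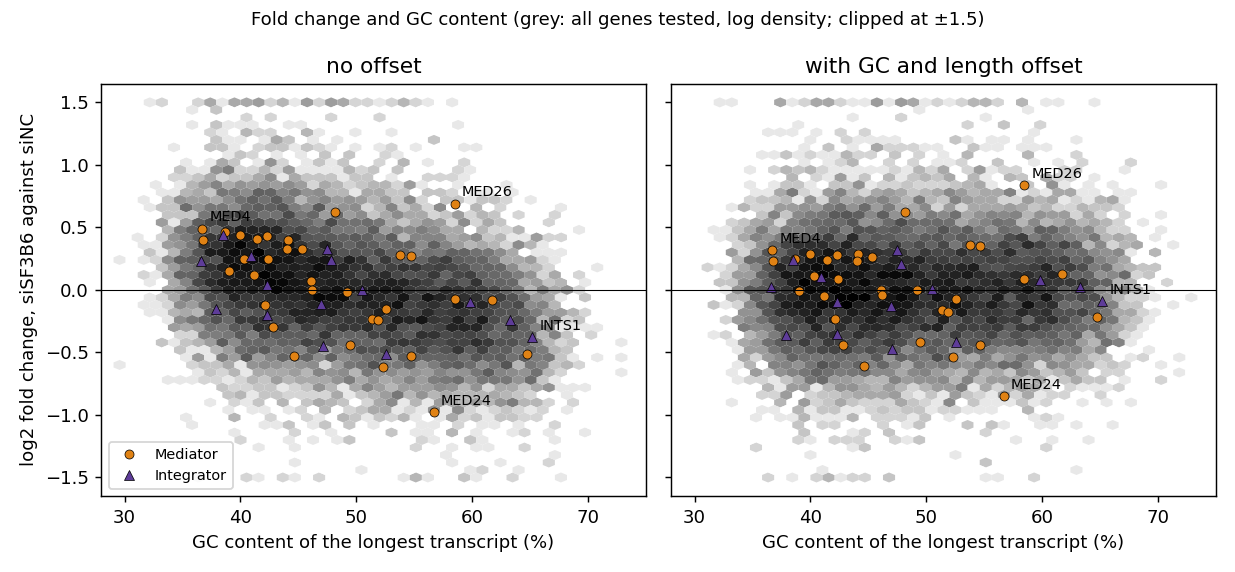
Log2 fold change against GC content of the longest transcript for Mediator (orange circles) and Integrator (purple triangles) genes over all genes tested (grey, log density, values beyond 1.5 drawn at 1.5), without (left) and with (right) the GC and length offset. Subunit genes follow the downward slope on the left, with r = -0.47, and are level on the right, with r = -0.11, where MED26 and MED24 stay at the ends.

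The promoters of the genes at those ends are shown because these genes moved furthest in opposite directions and kept their calls in all 23 alternatives. MED24 lies on chromosome 17 (GRCh38, 40019097 to 40061215, minus strand) and MED26 on chromosome 19 (16574907 to 16629062, minus strand). The 250 bases before the RefSeq transcription start (GRCh38.p14) are printed on the gene's strand, with the CCAAT box, or ATTGG on the other strand, in capitals. For both genes this window lies inside the span just given, so an annotated start further upstream exists and is not shown.
MED24, chr17:40054409-40054658: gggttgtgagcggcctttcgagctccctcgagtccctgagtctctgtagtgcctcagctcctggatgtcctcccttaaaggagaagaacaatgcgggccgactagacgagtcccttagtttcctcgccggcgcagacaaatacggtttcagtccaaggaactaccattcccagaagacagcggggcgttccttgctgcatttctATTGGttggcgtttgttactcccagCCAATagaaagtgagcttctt
MED26, chr19:16628205-16628454: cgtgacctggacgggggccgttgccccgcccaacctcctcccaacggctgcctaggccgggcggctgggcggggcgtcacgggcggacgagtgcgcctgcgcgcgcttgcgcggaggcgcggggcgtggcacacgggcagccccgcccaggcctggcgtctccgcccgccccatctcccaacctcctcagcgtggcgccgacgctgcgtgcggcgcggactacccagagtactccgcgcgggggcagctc
The MED24 window held CCAAT on both strands, 21 and 46 bases before the start, and the MED26 window held none. RefSeq listed 41 promoters for 36 of the 48 subunit genes. The word CCAAT, on either strand, was in 43.9% of the 41 and in 32.0% of 35116 promoters of all genes. The word CCGGAAG, bound by ETS factors, was in 24.4% of the 41 and 8.52% of all. Words of E2F were in 9.76% and 2.79%, of YY1 in 4.88% and 0.248%, and of NRF1 in 2.44% and 1.03%. The word TATAAA was in 4.88% and 10.7%. The 35116 promoters were not limited to genes tested here. Among genes with a listed promoter, CCGGAAG was in 3 of 13 that rose, 3 of 6 that fell and 3 of 17 not called. For CCAAT the counts were 5 of 13, 3 of 6 and 9 of 17. A word match is a description and not evidence of binding.

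Other genes of the transcription cycle, from lists written from general knowledge, also held calls in both directions. So did the whole table: of all genes tested, 20.8% rose and 20.0% fell, shares that stand beside the counts of every list below. Of 12 RNA polymerase II subunit genes, 3 rose and 2 fell, with a median log2 fold change of -0.07. POLR2K (0.40, and 0.20 with the offset) and POLR2C (0.26) rose, and POLR2H (-0.66) and POLR2F (-0.41, and -0.25 with the offset, adjusted p = 0.0617) fell. Of 33 genes of the general transcription factors and TFIID, which assemble with Mediator at promoters, 11 rose and 4 fell, with a median of 0.15. The TFIIH subunit GTF2H2 rose by 0.68 and the TFIID subunit TAF13 by 0.67. The TFIIH helicase ERCC2 fell by 0.82 and the TFIID subunit TAF3 by 0.44.

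Of 32 genes of pausing and elongation, the step on which Integrator and MED26 act, 14 rose and 5 fell, with a median of 0.20. CCNT2, a cyclin of P-TEFb, stood at 22.0, 23.0 and 29.4 CPM in siNC and at 42.1, 40.1 and 51.8 CPM in siSF3B6 and rose by 0.85 (adjusted p = 0.000154). EAF1, a partner of the ELL elongation factors to which MED26 binds, rose by 0.65. NELFB, a subunit of the pausing factor NELF, fell by 0.70 (-0.41 with the offset), and LARP7, which stabilises the 7SK RNA, fell by 0.45. Of 9 Integrator partners 4 rose and 2 fell, with a median of 0.05. The PP2A genes were divided: the catalytic PPP2CB rose by 0.42 and the scaffold PPP2R1A fell by 0.46. NABP1 of the SOSS complex rose by 0.35 (0.15 with the offset), and BRAT1, a partner of INTS9 and INTS11, fell by 0.30 (-0.05 with the offset, adjusted p = 0.470). Of 21 genes of mRNA 3' end processing, which holds relatives of INTS9 and INTS11, 5 rose and 5 fell, with a median of -0.05. PCF11 rose by 0.64 and RBBP6 by 0.63, and the scaffold SYMPK fell by 0.69 and CPSF1 by 0.51 (-0.29 with the offset). Against siNC replicate 3 alone, POLR2H, TAF13, ERCC2, CCNT2, EAF1, NELFB, LARP7, PCF11, RBBP6 and SYMPK were called, and the other 10 genes named from these lists were not.

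**Figure D5:**
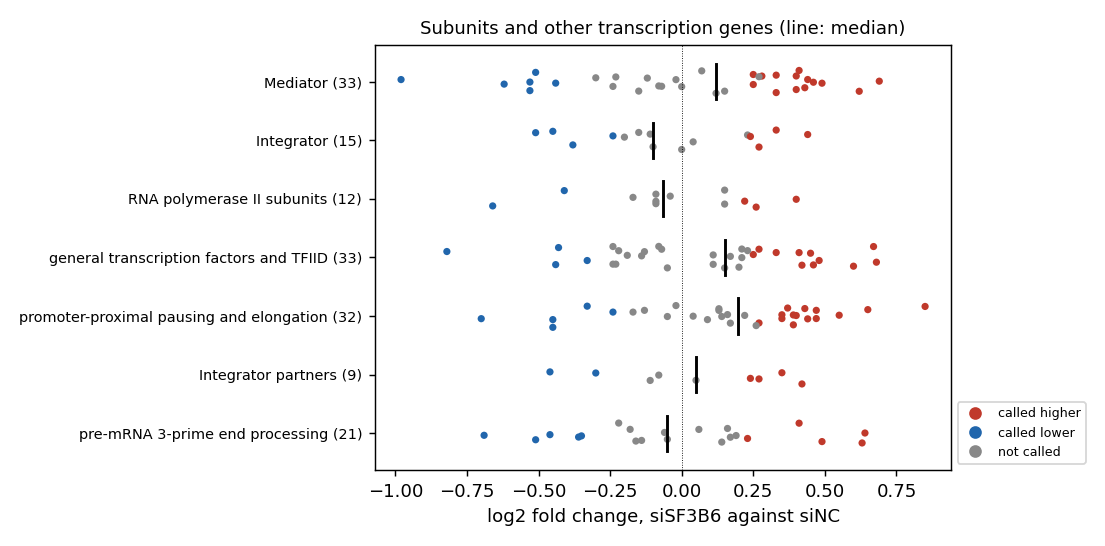
Log2 fold change of each gene of Mediator, Integrator and 5 lists of transcription genes, with the number of genes in brackets and the median as a black line; red was called higher, blue lower and grey not called. Each of the 7 sets holds red and blue points, and the medians lie between -0.10 (Integrator) and 0.20 (pausing and elongation). Of all genes tested, 20.8% were called higher and 20.0% lower.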

How the data were processed

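Counts of reads per gene, whole numbers without normalization, were deposited by the authors for 39323 genes, and FPKM values, also deposited by the authors, for 39210. Per the submitters' processing notes, HISAT2, DESeq2 and hg38 were used, with no versions. Which program counted reads, whether by strand and on which annotation is not given in the sources used here. Libraries were strand-specific, per the labels' protocols. Groups and replicate numbers came from the sample titles, since the cell line field counts upward from MDA-MB-231 across samples. The genes and lists were chosen with earlier results of these data known.

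Counts were filtered (filterByExpr), scaled (TMM) and tested with edgeR 4.0.16 (quasi-likelihood, R 4.3.3), siSF3B6 against siNC, with Benjamini-Hochberg adjustment over 16869 genes. The SE was derived from the F statistic. The test was tested on simulated data. GC content, lengths and overlaps came from GENCODE 29. The offset was a lowess curve (span 0.3) per library. Every subunit is named; per-library values were given for SF3B6, for up to 6 called genes each way per complex with at least 5 CPM and the largest change, for paralog pairs and for MED14, CCNC, INTS11, INTS9 and INTS1, and for some others. From each list up to 2 called genes each way were named.

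Alternatives were RLE factors, DESeq2 1.42.0, limma 3.58.1 with voom, scaling by library size, other filters on low counts, a replicate block, robust dispersion, limma on log2(FPKM + 1) or log2(FPKM + 0.1), the GC and length offset, leaving out each library, siNC replicate 3 as the lone control (assumed to vary like siSF3B6), libraries numbered 1 and 2, and no mitochondrial genes. The offset with the lone control, and count ratios of paralogs, were added after seeing the data.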

Additional observations from a re-analysis of the deposited data

How the results depend on the processing

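Of the 28 called genes, 6 kept their call in all 23 alternatives and 15 in all 6 fits that left out 1 library. Called genes numbered 6889 of all genes, 20 in Mediator and 8 in Integrator. Limma on unfiltered log2(FPKM + 1) gave 3817, 8 and 2, and siNC replicate 3 as the lone control gave 2471, 5 and 1. The offset with the lone control gave 9 in Mediator and 3 in Integrator, and no filter on low counts gave 5 in Integrator. Leaving out 1 library gave 5044 to 7571 over all genes, 13 to 22 in Mediator and 3 to 9 in Integrator. Among called genes, 3 of 28 changed sign in some alternative: INTS11, at 0.02 with the offset, with or without the replicate block, and INTS1 and MED18, at 0.03 with the offset and the lone control. Of the 20 genes not called, 12 changed sign in some alternative. MED15 was at 0.13 with the offset, and was called there only with the replicate block added (adjusted p = 0.0488). The cause was not tested. Library size scaling split the calls over all genes into 2459 higher and 4558 lower, against 3509 and 3380. The deviations of same-numbered libraries correlated at 0.0397, 0.106 and 0.136, so the numbers were not taken as pairs, though each siNC library correlated best with its own number. A replicate block gave 8052 genes, 22 in Mediator and 10 in Integrator. With 3 libraries a group, small changes can be missed.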

Other observations

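C7orf26, whose product is an Integrator subunit now called INTS15, fell outside the choice by symbol. It stood at 34.4, 35.3 and 29.1 CPM in siNC replicates 1 to 3 and at 26.0, 26.7 and 18.9 CPM in siSF3B6. Every siSF3B6 library lay below every control. C7orf26 fell by 0.46 on the log2 scale (SE 0.125, edgeR adjusted p = 0.00944), with a value of -0.25 with the GC and length offset (adjusted p = 0.0167) and -0.30 against siNC replicate 3 alone (adjusted p = 0.294). It was named after its values were seen. GSTCD, which shares 8.5% of the exonic bases of INTS12 on the opposite strand, stood at 14.4 to 16.9 CPM in siNC and 10.2 to 11.4 CPM in siSF3B6 and fell by 0.53 (adjusted p = 0.00109), while INTS12 rose by 0.33. CXCL16, which shares 5.8% of the exonic bases of MED11, rose by 0.61 (adjusted p = 0.00203), and MED11 was not called at -0.15. Whether reads of such neighbours were told apart by strand is not given in the sources used here.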
